A study of Mus musculus with 6 samples.

Results

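The enzymes that build cholesterol and fatty acids, and the proteins that switch their genes on, were followed in aortic plaque RNA as 32 genes out of 24062 gene symbols counted. They were taken by symbol and comprise 20 enzymes of sterol synthesis (8 from acetyl-CoA to the isoprenoids and 12 from squalene to cholesterol), 6 enzymes of fatty acid synthesis and 6 regulators and carriers. All 32 passed the filter on low counts. Plaque was taken from the aortic arch of mice on a C57BL/6 background with a knockout that makes them prone to atherosclerosis. Both groups carried this knockout, ate the high-fat diet TD88137 for 12 weeks to grow lesions, and then ate a low-fat diet for 3 weeks until they were killed. The 3 ABT263 libraries came from mice injected into the peritoneum with 100 mg/kg of ABT263 (navitoclax, an inhibitor of anti-apoptotic BCL-2 family proteins), with 1 dose each day during week 1 of the low-fat diet. The 3 vehicle libraries are labelled as vehicle alone. The labels leave out the number of dosing days and the age and sex of the mice. They do not say that each library came from its own animal either. The p-values set the group difference against the spread within the groups of these 6 samples. Some of that spread may be technical, so the p-values may not hold across animals.

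Cholesterol synthesis starts with acetyl-CoA, which the mevalonate arm turns into isoprenoid units. Squalene synthase commits these units to sterols, and a long series of oxidations, reductions and demethylations then yields cholesterol. Fatty acid synthesis uses the same acetyl-CoA: ATP citrate lyase releases it from citrate, acetyl-CoA carboxylase makes malonyl-CoA, fatty acid synthase builds palmitate, and elongases and desaturases finish the chain. Both sets are switched on by the transcription factors SREBP-1 and SREBP-2, which SCAP escorts to the Golgi for cleavage when membrane sterol is low and which the INSIG proteins hold back when it is high. SREBP-2 acts mainly on sterol genes, and SREBP-1c, which also responds to insulin and liver X receptors, acts mainly on fatty acid genes. In plaque, macrophages take up lipoprotein cholesterol, and adipocytes of the fat around the vessel are cells that can make fatty acids at a high rate.

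SREBPs bind sterol regulatory elements and act together with NF-Y, which binds CCAAT boxes, and with Sp1. Promoters of 26 of the 32 genes were found in the RefSeq table on GRCm38.p6, in 34 windows that reach from 250 bases before to 50 after a start site. The 4 stretches below show the 250 bases before the start site, 5′ to 3′ along the gene, with capitals on the sterol element core TCACNCCAC and on CCAAT, each searched on both strands. Hmgcs1 is shown as the only 1 of these 26 members with the sterol element core, Mvd as an enzyme of the same arm whose levels did not follow it, Fasn as the member with the largest fold change, and Insig2 as a regulator whose groups did not overlap. Hmgcs1 lies at chr13:119690101-119690350 on the plus strand, Mvd at chr8:122443423-122443672, Fasn at chr11:120824548-120824797 and Insig2, for the most upstream of its 3 windows, at chr1:121332590-121332839, the last 3 on the minus strand.
Hmgcs1: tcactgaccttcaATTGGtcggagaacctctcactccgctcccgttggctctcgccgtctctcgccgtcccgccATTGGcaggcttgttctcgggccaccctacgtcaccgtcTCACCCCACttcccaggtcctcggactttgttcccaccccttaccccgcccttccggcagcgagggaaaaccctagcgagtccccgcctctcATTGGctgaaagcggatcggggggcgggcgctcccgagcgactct
Mvd: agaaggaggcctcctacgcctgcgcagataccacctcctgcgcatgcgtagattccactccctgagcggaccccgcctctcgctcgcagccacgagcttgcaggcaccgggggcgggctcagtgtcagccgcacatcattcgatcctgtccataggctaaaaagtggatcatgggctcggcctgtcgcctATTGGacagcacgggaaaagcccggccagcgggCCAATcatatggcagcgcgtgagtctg
Fasn: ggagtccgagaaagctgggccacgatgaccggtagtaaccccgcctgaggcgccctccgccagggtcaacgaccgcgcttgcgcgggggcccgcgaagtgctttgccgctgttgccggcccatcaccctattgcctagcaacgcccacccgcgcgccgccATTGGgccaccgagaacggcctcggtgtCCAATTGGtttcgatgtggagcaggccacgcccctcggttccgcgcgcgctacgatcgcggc
Insig2: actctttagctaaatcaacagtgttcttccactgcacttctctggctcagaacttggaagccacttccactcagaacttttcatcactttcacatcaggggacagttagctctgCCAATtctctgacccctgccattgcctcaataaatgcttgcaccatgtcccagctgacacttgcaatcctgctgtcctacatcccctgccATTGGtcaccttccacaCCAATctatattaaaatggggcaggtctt

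Hmgcs1 held 1 sterol element core, which starts 137 bases before the start site, and 3 CCAAT boxes in this stretch. Mvd held 2 CCAAT boxes, and Fasn and the Insig2 stretch shown held 3 each. The remaining Insig2 windows, further downstream, held no CCAAT box. In Fasn, 2 of the 3 overlap on opposite strands in the run CCAATTGG. Over the full windows, CCAAT occurred in 23 of 34 member windows (67.6%) and in 37.4% of all 32851 windows of the table. The Sp1 box GGGCGG, which can share bases with a neighbouring CCAAT box, occurred in 25 member windows (73.5%) and in 35.7% of all. The sterol element core occurred in 1 member window (2.94%) and in 1.24% of all. A match in these letters is a description of the window and not a measured binding site. The search took 1 spelling of the sterol element within these windows only. A gene without a match is therefore not shown to lack such an element.

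Library totals ran from 62930547 to 110452098 counts, with 16889 to 17419 genes detected. All levels below are CPM, reads scaled to a common library total after TMM adjustment of library sizes. A gene with 0 reads in a library could still have had 3, which equals 0.0272 to 0.0477 CPM depending on the library and covers counting error only. ABT263 replicate 2 stood apart in genes of fat cells: the 10 white adipocyte markers, 9 of which passed the filter, summed to 15.1 to 30.4 CPM with vehicle and to 20.3, 5029 and 21.7 CPM in ABT263 replicates 1, 2 and 3. Lep, which encodes leptin, had 0 counts in vehicle replicate 1 and in ABT263 replicates 1 and 3. The brown adipocyte markers (4 of 5 passed) summed to 2.11 to 2.79 CPM with vehicle and to 1.67, 558 and 2.94 CPM with ABT263. The contractile smooth muscle markers (8 of 8 passed) summed to 2475 to 3415 CPM with vehicle and to 2242, 15240 and 9288 CPM with ABT263. Of 10 macrophage symbols listed, 9 were among the symbols counted, and all 9 passed. These macrophage markers summed to 5544 to 11068 CPM with vehicle and to 4125, 2770 and 4865 CPM with ABT263. Vehicle replicate 2 stood apart in the 5 endothelial markers, which summed to 2955, 323 and 4293 CPM in the vehicle libraries and to 1508 to 4326 CPM with ABT263. Bulk RNA cannot tell fewer cells of a type from less RNA per cell, and the part of these libraries' marker levels in the lipid genes' values was not tested.

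None of the 32 genes passed the test between ABT263 and vehicle (edgeR quasi-likelihood test, Benjamini-Hochberg adjusted p over 15222 genes, threshold 0.05), and neither did any other gene (0% called). The smallest adjusted p of a member was 0.592. At an unadjusted p under 0.05 edgeR held 3 members, Acat2, Fasn and Elovl6, beside 8.38% of all genes tested, so the members' share of 3 in 32 is near the background. Leaving out 1 library moved this count: it was 8 members (1867 of 15556 genes) without ABT263 replicate 1, 5 members (957 of 15521 genes) without ABT263 replicate 3, and 1 member (1115 of 15495 genes) without vehicle replicate 2. It was 0 members without vehicle replicate 1 (805 of 15637 genes), vehicle replicate 3 (1002 of 15563 genes) or ABT263 replicate 2 (653 of 15433 genes). DESeq2 called 153 of 14425 genes (1.06%) and no member. At an unadjusted p under 0.05 it held 2 members beside 1718 genes of all, and it gave 3 members no p. By limma-voom 0 genes were called, with 855 genes and no member at an unadjusted p under 0.05. With ABT263, 26 members had a positive fold change and 6 a negative one, with a median log2 fold change of 0.29, beside 7629 positive of 15222 genes and a median of 0.0008. In 4 members (Acat2, Idi1, Elovl6 and Insig2) every ABT263 library lay above every vehicle library, where 5.68% of all genes did so, and in 0 members every ABT263 library lay below, where 6.31% of all genes did so.

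Most of the size of these differences came from 1 library. ABT263 replicate 2 held the highest level of 22 of the 32 genes, where it held the highest of 24.9% of all genes tested. Its level was over 1.5 times the mean of the other 5 libraries for 17 members (53.1%), beside 18.4% of all genes. This group took in 5 of the 6 fatty acid enzymes and 10 of the 20 sterol enzymes. Without this library 19 members had a positive and 13 a negative fold change, and the median was 0.056. No member had an unadjusted p under 0.05 by edgeR in that comparison, beside 653 of 15433 genes. The same 4 genes lay above every vehicle library there, beside 8.31% of all genes in that comparison. This adds no support, because genes separated over all 6 libraries stay separated, rescaling aside, when 1 library is left out.

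**Figure D1:**
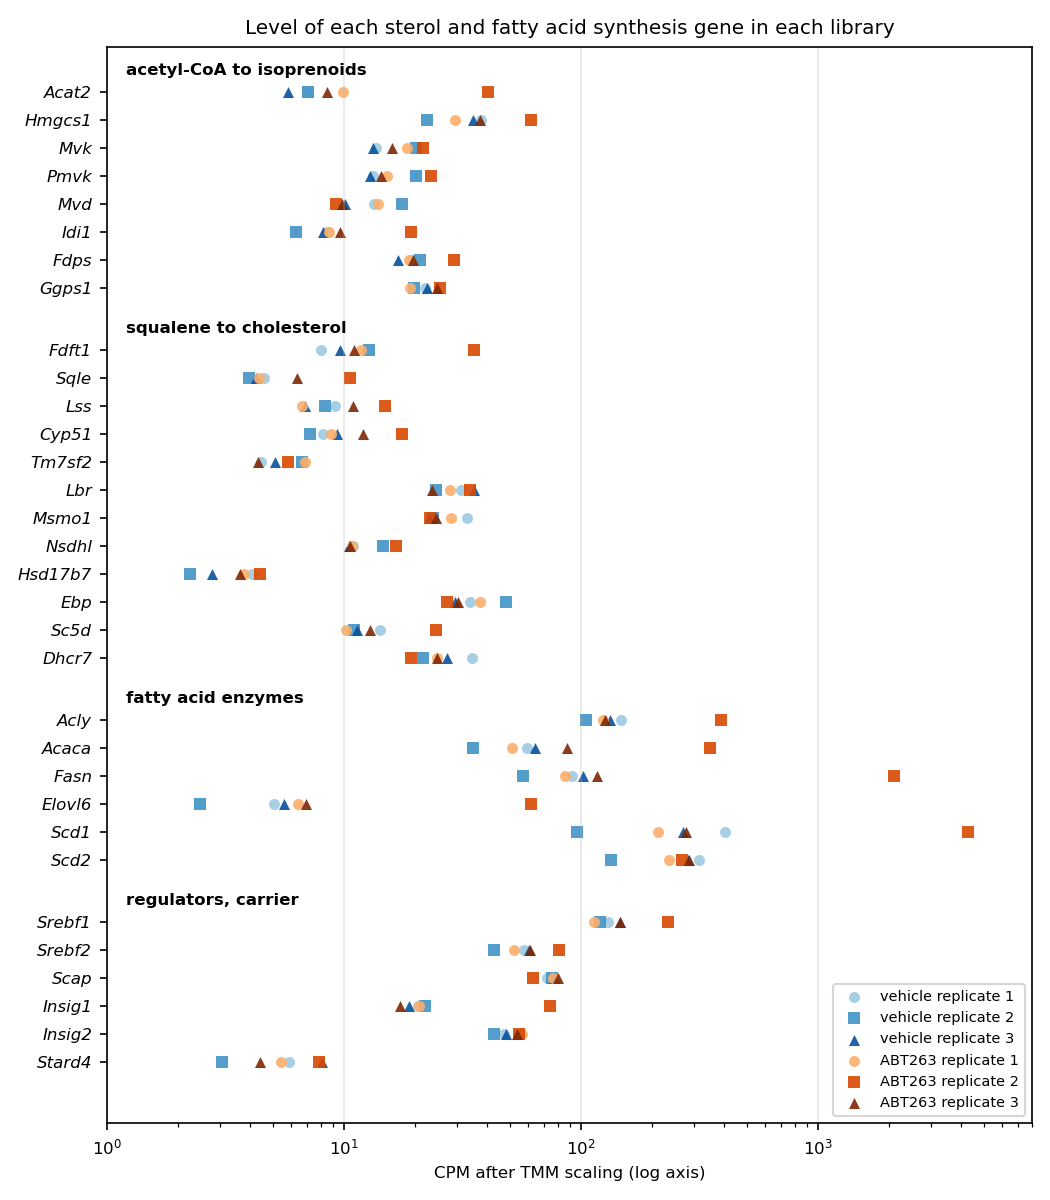
CPM after TMM scaling (log axis) of each of the 32 genes in each of the 6 libraries, grouped by role, with 1 symbol per library. ABT263 replicate 2 (filled orange square) is the highest point for 22 of the 32 genes, and vehicle replicate 2 (blue square) is the lowest for all 6 fatty acid enzymes.

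The fatty acid enzymes differed most between libraries. Fasn, fatty acid synthase, which builds palmitate from malonyl-CoA (chromosome 11, 120805846 to 120824547, mm10), stood at 91.4, 57.2 and 102 CPM in vehicle replicates 1 to 3 and at 85.4, 2099.7 and 117 CPM in ABT263 replicates 1 to 3. A single ABT263 library was far above all others, and the remaining ABT263 libraries lay within or just above the vehicle range. The fitted log2 fold change was 3.20 (SE 1.27, adjusted p = 0.592 by edgeR) and 0.28 (SE 0.31) without ABT263 replicate 2.

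Elovl6, the elongase that extends palmitate to stearate (chromosome 3, 129532355 to 129638495), stood at 5.09, 2.48 and 5.57 CPM with vehicle and at 6.44, 61.7 and 6.94 CPM with ABT263. Its groups did not overlap, though ABT263 replicates 1 and 3 exceeded the highest vehicle library by little. The log2 fold change was 2.52 (SE 0.97, adjusted p = 0.592 by edgeR), and it was 0.62 (SE 0.41) without ABT263 replicate 2. Acaca, acetyl-CoA carboxylase, the committed step of the pathway (chromosome 11, 84129672 to 84401651), stood at 59.5, 35.2 and 63.9 CPM with vehicle and at 51.4, 349 and 87.5 CPM with ABT263. ABT263 replicates 2 and 3 were above every vehicle library and replicate 1 was not. The log2 fold change was 1.62 (SE 0.71, adjusted p = 0.596 by edgeR), and 0.40 (SE 0.35) without replicate 2. Counts of Acaca are uncertain to the extent that 30.4% of the 50-base stretches of its exons occur in another gene, mostly in Gm5182.

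The desaturases Scd1 and Scd2, which place a double bond in stearate and palmitate, parted from each other. Scd1 (chromosome 19, 44394455 to 44407879) stood at 407, 96.7 and 270.1 CPM with vehicle and at 211, 4299 and 278 CPM with ABT263. Its neighbour Scd2 (chromosome 19, 44293674 to 44306864) stood at 315, 134 and 284 CPM with vehicle and at 235, 266 and 285 CPM with ABT263. The ratio of Scd1 to Scd2 was 1.29, 0.721 and 0.952 in the vehicle libraries and 0.897, 16.2 and 0.975 with ABT263, so that the gene pair was close to even in 5 libraries and far from it in ABT263 replicate 2. Scd2 was the only fatty acid enzyme that was not highest in that library, where it stood at 1.06 times the mean of the other 5. Over all libraries the log2 fold change was 2.63 (SE 1.27, adjusted p = 0.619 by edgeR) for Scd1 and 0.10 (SE 0.34, adjusted p = 0.966) for Scd2. Without ABT263 replicate 2 that of Scd1 was -0.068 (SE 0.58). Of the 50-base stretches of their exons, 4.56% for Scd1 and 3.97% for Scd2 occur in another gene, in part in each other or in Scd3.

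Acly, ATP citrate lyase, which supplies cytosolic acetyl-CoA to both pathways, stood at 148.1, 106 and 132 CPM with vehicle and at 124, 391 and 126 CPM with ABT263 (log2 fold change 0.73, SE 0.49, adjusted p = 0.723 by edgeR). Outside ABT263 replicate 2 its levels spread over 1.403-fold, and its log2 fold change without that library was -0.035. As a group, the 6 fatty acid enzymes had 6 positive fold changes with a median of 2.07, and without ABT263 replicate 2 they had 4 positive and 2 negative ones with a median of 0.19. All 6 were lowest in vehicle replicate 2, which held the lowest level of 29.8% of all genes tested. With both of these libraries left out the median was -0.049.

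The genes of the mevalonate arm spread less between libraries. Acat2, the cytosolic thiolase that joins acetyl-CoA units (chromosome 17, 12942890 to 12960747), stood at 7.01, 7.09 and 5.80 CPM with vehicle and at 9.93, 40.7 and 8.52 CPM with ABT263. All 3 ABT263 libraries were above all 3 vehicle libraries. By the fit its log2 fold change was 1.57 (SE 0.62, adjusted p = 0.592 by edgeR) and 0.48 (SE 0.25) without ABT263 replicate 2. Its counts are uncertain, because 39.1% of its 50-base exon stretches also occur in the paralog Acat3. Idi1, which interconverts the 2 isoprenoid building blocks (chromosome 13, 8885501 to 8892451), stood at 8.49, 6.29 and 8.13 CPM with vehicle and at 8.67, 19.2 and 9.60 CPM with ABT263. Its groups did not overlap, but vehicle replicate 1 (8.49 CPM) and ABT263 replicate 1 (8.67 CPM) were nearly equal. The log2 fold change was 0.71 (SE 0.36, adjusted p = 0.638 by edgeR) and 0.26 (SE 0.26) without ABT263 replicate 2, and 25.3% of its exon stretches occur elsewhere, mostly in Gm13502.

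Hmgcs1, the synthase that makes HMG-CoA, stood at 37.8, 22.4 and 35.2 CPM with vehicle and at 29.4, 61.6 and 37.6 CPM with ABT263, so that only ABT263 replicate 2 was outside the vehicle range. Its log2 fold change was 0.43 (SE 0.33) and 0.082 (SE 0.28) without that library. Mvd, the decarboxylase at the end of the mevalonate steps, ran the other way with 13.4, 17.5 and 10.1 CPM against 13.9, 9.31 and 9.81 CPM, and its lowest level was in ABT263 replicate 2 (log2 fold change -0.31, SE 0.29, and -0.20 without that library). The kinases Mvk and Pmvk, the farnesyl diphosphate synthase Fdps and the geranylgeranyl diphosphate synthase Ggps1 had log2 fold changes of 0.25, 0.19, 0.25 and 0.11, each with overlapping groups and each highest in ABT263 replicate 2. Without that library they were 0.14, -0.057, 0.020 and 0.033. Counts of Fdps are uncertain, because 26.2% of its 50-base exon stretches occur in another gene, mostly in Gm43738. The share was 11.6% for Hmgcs1 and 9.58% for Ggps1. In this arm 7 of the 8 fold changes were positive, and their median was 0.25. Without ABT263 replicate 2 there were 6 positive ones of 8 and the median was 0.058.

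From squalene to cholesterol the genes did not follow one pattern. Cyp51, the lanosterol demethylase (chromosome 5, 4081145 to 4104746), stood at 8.13, 7.18 and 9.39 CPM with vehicle and at 8.79, 17.6 and 12.0 CPM with ABT263. ABT263 replicates 2 and 3 were above the vehicle range and replicate 1 lay inside it. Its log2 fold change was 0.64 (SE 0.31, adjusted p = 0.617 by edgeR), and 0.34 (SE 0.27) without ABT263 replicate 2. Sqle, squalene epoxidase, a rate-limiting step of the pathway (chromosome 15, 59315077 to 59331192), stood at 4.62, 3.97 and 4.24 CPM with vehicle and at 4.38, 10.6 and 6.32 CPM with ABT263, again with replicate 1 inside the vehicle range. Its log2 fold change was 0.73 (SE 0.37, adjusted p = 0.638 by edgeR) and 0.33 (SE 0.30) without ABT263 replicate 2.

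Fdft1, squalene synthase, stood at 7.998, 12.7 and 9.64 CPM with vehicle and at 11.8, 35.4 and 11.0 CPM with ABT263 (log2 fold change 0.94, SE 0.50, and 0.17, SE 0.28, without ABT263 replicate 2). Its exons overlap those of Ctsb, the lysosomal protease cathepsin B. Of its exon stretches 26.5% occur in another gene, and 17.2% occur in Ctsb, so its counts are uncertain. Lss, which closes the sterol rings, Hsd17b7, a sterol ketone reductase, and Sc5d, a sterol desaturase, had log2 fold changes of 0.41, 0.38 and 0.38, and of 0.12, 0.30 and -0.075 without that library. The C-14 reductases Tm7sf2 and Lbr, of which Lbr also anchors chromatin at the nuclear envelope, had 0.061 and -0.092, and 0.047 and -0.23 without it. Msmo1 and Nsdhl, which remove methyl groups from the sterol, had -0.073 and 0.079, and -0.0078 and -0.16 without it. The groups of all of these genes overlapped.

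The late steps Ebp and Dhcr7, and Mvd before them, were lowest where most others were highest. Ebp, the sterol isomerase, stood at 34.2, 48.5 and 29.3 CPM with vehicle and at 37.4, 27.1 and 30.4 CPM with ABT263. Dhcr7, a late sterol reductase, stood at 34.8, 21.5 and 27.2 CPM with vehicle and at 24.7, 19.1 and 24.8 CPM with ABT263. Both had their lowest level in ABT263 replicate 2, at 0.755 and 0.719 times the mean of the other 5 libraries, and both groups overlapped (log2 fold changes -0.24 and -0.28, SE 0.24 and 0.23, and -0.14 and -0.16 without that library). In this arm 8 of the 12 fold changes were positive (median 0.23), and 7 genes were highest in ABT263 replicate 2. Without that library 6 were positive and 6 negative, with a median of 0.019.

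**Figure D2:**
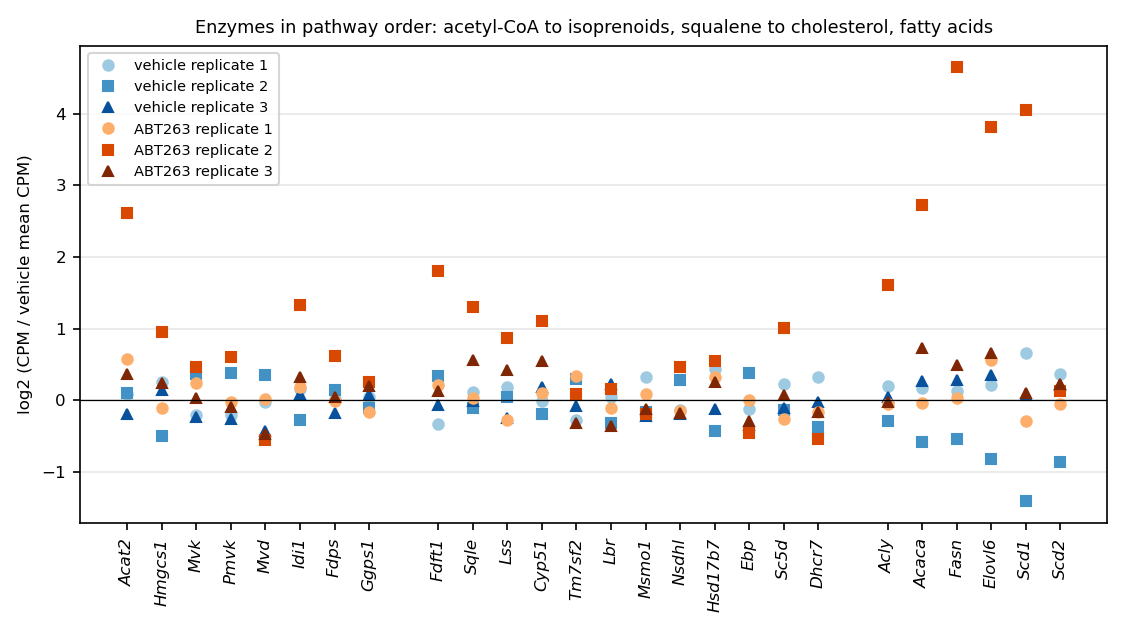
Level of each enzyme in each library relative to the vehicle mean (log2 of CPM over the vehicle mean), in pathway order from acetyl-CoA to isoprenoids, squalene to cholesterol and fatty acids, with 1 symbol per library. ABT263 replicate 2 is above the vehicle mean at most enzymes, among them Acat2, Hmgcs1, Idi1, Fdft1, Sqle, Lss, Cyp51 and Sc5d. It is farthest above the mean at Fasn, Scd1 and Elovl6, and below it at Mvd, Msmo1, Ebp and Dhcr7.

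Among the regulators, the most even difference was in Insig2, which retains SCAP and the SREBPs in the endoplasmic reticulum (chromosome 1, 121304353 to 121332589). It stood at 47.3, 42.9 and 48.2 CPM with vehicle and at 56.6, 55.0 and 53.5 CPM with ABT263. The groups did not overlap, and ABT263 replicate 2 lay between the other ABT263 libraries. Its log2 fold change was 0.26 (SE 0.14, adjusted p = 0.668 by edgeR), and it was 0.26 (SE 0.17) without ABT263 replicate 2, so it did not depend on that library. Insig1, whose gene is itself an SREBP target (chromosome 5, 28071363 to 28078662), stood at 20.6, 21.9 and 18.8 CPM with vehicle and at 20.8, 74.0 and 17.2 CPM with ABT263. Outside ABT263 replicate 2 its 5 values spread over 1.27-fold. The log2 fold change was 0.87 (SE 0.56, adjusted p = 0.715 by edgeR) and -0.10 (SE 0.21) without that library. The ratio of Insig1 to Insig2 was 0.391 to 0.511 in the vehicle libraries and 0.366, 1.34 and 0.321 with ABT263.

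Srebf1, the gene of SREBP-1 (chromosome 11, 60199089 to 60222581), stood at 129.6, 121 and 146 CPM with vehicle and at 113, 233 and 146.8 CPM with ABT263. Srebf2, the gene of SREBP-2 (chromosome 15, 82147181 to 82205379), stood at 57.7, 43.0 and 60.4 CPM with vehicle and at 52.5, 80.8 and 60.7 CPM with ABT263. Both were highest in ABT263 replicate 2, and in both the other ABT263 libraries were within or close to the vehicle range. The log2 fold changes were 0.31 (SE 0.29, adjusted p = 0.825 by edgeR) for Srebf1 and 0.27 (SE 0.23, adjusted p = 0.808) for Srebf2, and -0.018 and 0.082 without that library. The ratio of Srebf1 to Srebf2 was 2.49 ± 0.288 with vehicle and 2.49 ± 0.368 with ABT263 (SD, n = 3 each). Scap ran from 72.2 to 77.2 CPM with vehicle and from 62.6 to 80.2 CPM with ABT263, its lowest level being in ABT263 replicate 2 (log2 fold change -0.039, SE 0.16, and 0.064 without that library). Stard4, a carrier that moves cholesterol between membranes, ran from 3.05 to 8.06 CPM with vehicle and from 4.44 to 7.85 CPM with ABT263 (log2 fold change 0.064, SE 0.43, and -0.19 without that library). The 6 regulators and carriers had 5 positive fold changes with a median of 0.26, and without ABT263 replicate 2 they had 3 positive and 3 negative ones with a median of 0.023.

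**Figure D3:**
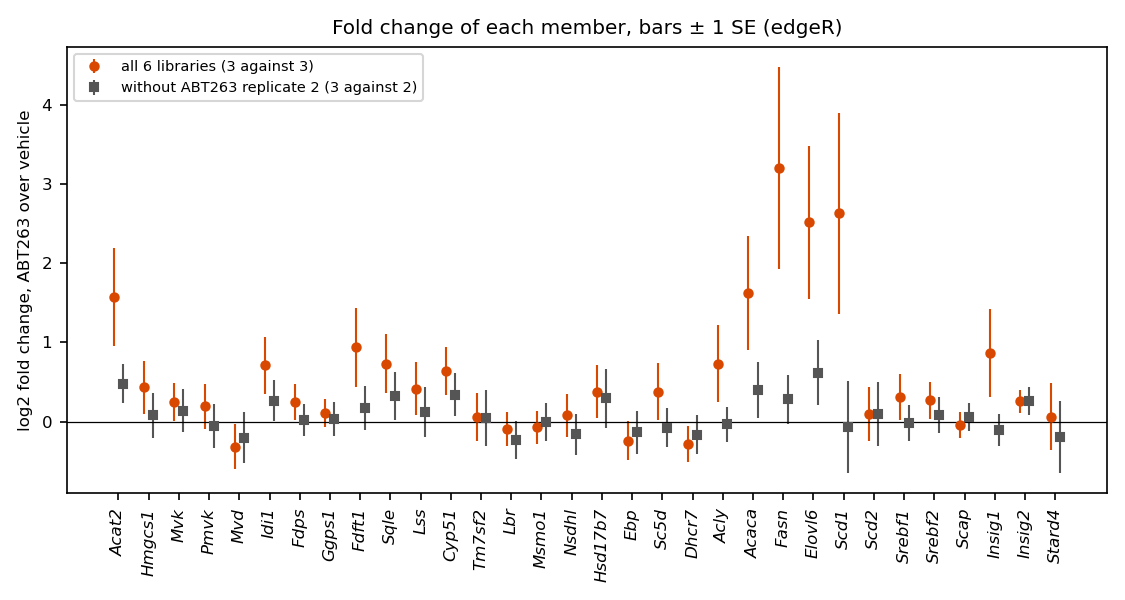
Log2 fold change of ABT263 over vehicle for each of the 32 genes by edgeR, with bars of ± 1 SE, over all 6 libraries (orange circles, 3 against 3) and without ABT263 replicate 2 (grey squares, 3 against 2). Fasn goes from 3.20 to 0.28, Scd1 from 2.63 to -0.068 and Insig1 from 0.87 to -0.10, while Insig2 stays at 0.26.

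Set side by side, the summed level of the sterol enzymes was steadier than that of the fatty acid enzymes. The 20 sterol enzymes summed to 332, 319 and 299.5 CPM with vehicle and to 315, 464 and 315 CPM with ABT263. The 6 fatty acid enzymes summed to 1026, 431 and 857 CPM with vehicle and to 713, 7467 and 900.2 CPM with ABT263. Outside ABT263 replicate 2 the sterol sum thus stayed between 299.5 and 332 CPM, while the fatty acid sum had its lowest value in vehicle replicate 2. The fatty acid enzymes took 0.0421% to 0.0954% of all counts in 5 libraries and 0.801% in ABT263 replicate 2.

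The ratio of the fatty acid sum to the sterol sum was 3.09, 1.35 and 2.86 with vehicle and 2.26, 16.1 and 2.86 with ABT263. On the log scale, the mean log2 CPM of the fatty acid enzymes minus that of the sterol enzymes was 2.77, 1.77 and 2.83 with vehicle and 2.51, 4.73 and 2.83 with ABT263. Group means were 2.46 ± 0.597 and 3.36 ± 1.203 (SD, n = 3 each), a difference of 0.898 that is smaller than the SD among the ABT263 libraries. It was 0.21 without ABT263 replicate 2 and -0.13 with vehicle replicate 2 also left out. Beside this, the median log2 fold change of the sterol enzymes was 0.25 with 15 of 20 positive, and 0.040 with 12 of 20 positive without ABT263 replicate 2.

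**Figure D4:**
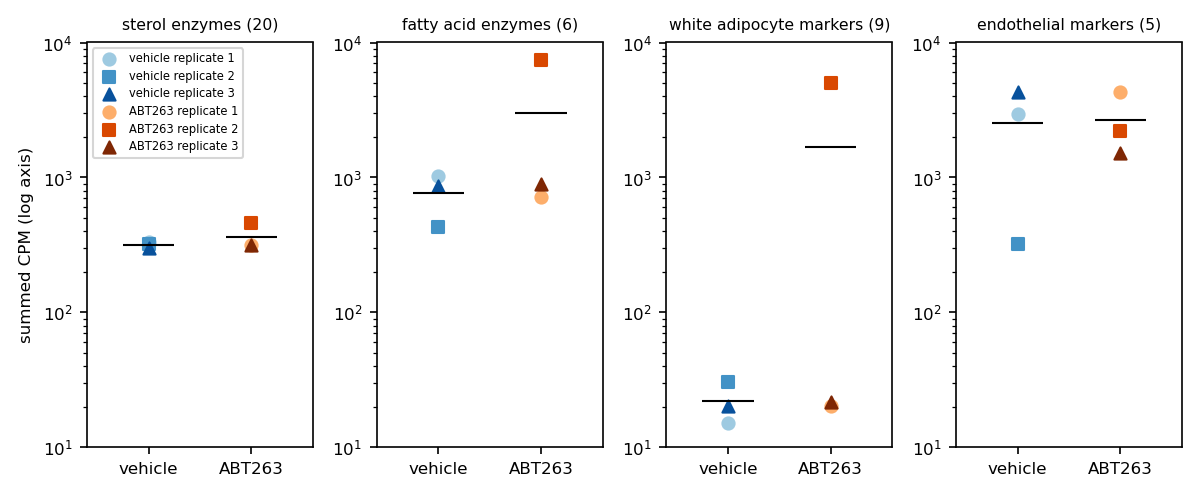
Summed CPM (log axis) of the 20 sterol enzymes, the 6 fatty acid enzymes, 9 white adipocyte markers and 5 endothelial markers in each library, with a line at each group mean. ABT263 replicate 2 reaches 7467 CPM for fatty acid enzymes and 5029 CPM for adipocyte markers but 464 CPM for sterol enzymes, and vehicle replicate 2 is lowest for fatty acid enzymes (431 CPM) and endothelial markers (323 CPM).

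Adipocyte genes stood high in the same library as the fatty acid enzymes. Lipe, Car3 and Slc2a4, the white adipocyte markers of highest mean log2 CPM, stood at 191, 2021 and 79.6 CPM in ABT263 replicate 2, and at 6.67 to 19.9, 1.34 to 5.01 and 1.85 to 7.40 CPM in the other 5 libraries. Adipoq, which encodes adiponectin, stood at 356 CPM there and at 0.096 to 0.51 CPM in the others. The part of adipocyte RNA in the members' values was not tested. In the other 5 libraries the white adipocyte markers summed to 15.1 to 30.4 CPM. With those 5 libraries alone edgeR called 0 of 15433 genes, so that 0 members passed there is not particular to the members. Endothelial Pecam1, Cdh5 and Vwf stood at 180, 27.0 and 100.2 CPM in vehicle replicate 2, where all fatty acid enzymes were lowest, against 1131, 309 and 1391 CPM in vehicle replicate 1. The part of endothelial RNA in this difference was not tested.

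Per kilobase of exon, the order of the members in the vehicle libraries was led by Scd1 at 52.7 ± 31.8 CPM per kb and Scd2 at 44.7 ± 17.7, whose spreads overlap. Acly at 24.4 ± 4.07 and Srebf1 at 23.4 ± 2.30 followed and do not differ beyond their spread. Ebp was the highest sterol enzyme at 16.2 ± 4.31 CPM per kb, and Insig2 and Scap followed at 13.3 ± 0.817 and 10.1 ± 0.337 (SD, n = 3 throughout). Fasn was in place 9 at 7.63 ± 2.14 CPM per kb, and Sqle, Lss, Elovl6 and Hsd17b7 were lowest, at 0.771 ± 0.0592, 0.754 ± 0.111, 0.681 ± 0.259 and 0.595 ± 0.187 CPM per kb. In ABT263 replicate 2 Scd1 stood at 879 CPM per kb and Fasn, now in place 2, at 192, while Hsd17b7 was again lowest at 0.868. The lengths take in every exon of a gene in GENCODE M21, which gave Lss 10.8 kb. The annotation used for counting is not given, so the order is approximate.

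Other genes of the 2 pathways were read from lists of non-members. Of 24 genes on the fatty acid and lipid side 22 were tested, of which 0 passed the test in either direction, 20 had a positive and 2 a negative fold change, and the median log2 fold change was 0.68. Without ABT263 replicate 2 there were 13 positive and 9 negative ones with a median of 0.073. The list includes Elovl3, which is also a brown adipocyte marker and, like Scd3, did not pass the filter. Me1, malic enzyme, a source of NADPH for fatty acid synthesis, stood at 29.0, 28.9 and 31.4 CPM with vehicle and at 42.9, 154 and 56.2 CPM with ABT263. Its groups did not overlap, which held with ABT263 higher for 1 of the 22 genes tested and for 5.68% of all genes. The log2 fold change was 1.504 (SE 0.48, adjusted p = 0.592 by edgeR), and 0.74 (SE 0.20) without ABT263 replicate 2.

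Mlxipl, the gene of the carbohydrate-responsive factor ChREBP, stood at 0.208 to 0.612 CPM with vehicle and at 0.609, 35.2 and 1.12 CPM with ABT263. Thrsp, a lipogenic nuclear protein of liver and fat, stood at 0.614 to 1.05 CPM with vehicle and at 1.32, 509.6 and 1.01 CPM with ABT263. Dgat2, which makes triglyceride, stood at 2.03 to 4.42 CPM with vehicle and at 2.30, 335 and 1.86 CPM with ABT263. All 3 of these genes were far higher in ABT263 replicate 2 than in any other library, and their log2 fold changes of 4.94, 7.62 and 5.12 were 1.12, 0.44 and -0.64 without it. On the sterol side 18 of 18 further genes were tested and 0 passed, 9 had a positive and 9 a negative fold change, and the median was 0.019 (0.012 without that library).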

How the data were processed

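RNA from 6 plaque samples was sequenced from TruSeq v2 libraries, a kit that does not mark strand. The authors deposited raw counts, an unscaled whole number for each gene symbol in each library. Per the submitters' processing notes, the tools included featureCounts 1.4.6 (Subread), TopHat2 2.0.14 and Bowtie2 2.2.6, and the build was mm10. Annotation, strand setting and multi-mapping rule are not given in these sources. Groups came from sample titles, and replicates are numbered in accession order.

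The work was done in R 4.3.3. The filter filterByExpr kept genes (minimum count 10, minimum total 15), which left 15222. These were scaled by TMM and tested with the quasi-likelihood test of edgeR 4.0.16, with group as the only term and Benjamini-Hochberg adjustment over all genes kept. The same genes were also tested with limma-voom (limma 3.58.1) and DESeq2 1.42.0. DESeq2 gave no p for Fasn, Elovl6 and Scd1, which stay without one. The code was tested on simulated data. Mean log2 CPM used a prior count of 2. Lengths, overlaps and 50-base stretches came from GENCODE M21 of GRCm38, which matched all 32 members; 13 have exons overlapping another gene.

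Members, lists and marker genes were chosen with earlier results of these data known. Values in every library are given for the 3 members of smallest p in the sterol, fatty acid and regulator classes, for each member whose groups do not overlap, for Srebf1 and Srebf2, and for the 4 further lipid genes of smallest p. Values of other members were added after they had been seen. Some further genes are not reported here. Of the white adipocyte and endothelial lists, the 3 genes of highest mean log2 CPM are named, with Adipoq and Lep added later. Sums are given for the brown adipocyte, contractile smooth muscle and macrophage lists, and the lists of further cell types are not used here.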

Additional observations from a re-analysis of the deposited data

How the results depend on the processing

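With 3 samples a group and 1 library far from the others, small differences are not detectable here. Large ones were not called by edgeR either, as for Fasn (log2 fold change 3.20, adjusted p = 0.592 by edgeR). No alternative called a member. Over all genes edgeR called 0 and DESeq2 153. Without ABT263 replicate 2 and vehicle replicate 2, a pair chosen with earlier results known, the median log2 fold change was -0.049 for fatty acid enzymes and -0.058 for regulators, and the fatty acid minus sterol difference was -0.13. Leaving out 1 library, the fatty acid median ran from 0.19 (without ABT263 replicate 2) to 2.51. Other scalings, no filter and DESeq2 kept each class median within the spread between libraries, as did limma-voom, with a fatty acid median of 1.37. Without TMM the median of all genes was 0.091, against 0.0008.

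Signs turned for 18 members under some alternative. The cause was not tested. Without TMM scaling Lbr, Msmo1 and Scap had 0.0042, 0.025 and 0.045. Leaving out 1 library, the ranges were -0.10 to 0.24 for Tm7sf2, -0.23 to 0.028 for Lbr, -0.17 to 0.12 for Msmo1, -0.16 to 0.24 for Nsdhl, -0.20 to 0.32 for Scd2, -0.24 to 0.40 for Stard4, -0.057 to 0.43 for Pmvk, -0.075 to 0.61 for Sc5d, -0.035 to 1.003 for Acly, -0.068 to 3.14 for Scd1, -0.018 to 0.52 for Srebf1, -0.11 to 0.064 for Scap and -0.10 to 1.21 for Insig1. With both libraries left out the values were -0.12 for Hmgcs1, 0.013 for Mvd, -0.027 for Ggps1, -0.00056 for Nsdhl, 0.095 for Ebp, -0.15 for Sc5d, -0.16 for Acly, -0.47 for Scd1, -0.20 for Scd2, -0.084 for Srebf1, -0.061 for Srebf2, 0.064 for Scap, -0.055 for Insig1 and -0.50 for Stard4. No paired analysis was possible because the labels give the groups no shared replicate numbers.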

Other observations

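A further gene of both pathways was read after its values had been seen. Cyb5r3, a cytochrome b5 reductase that passes electrons to the sterol and fatty acid desaturases, stood at 511, 487 and 538 CPM with vehicle and at 685, 670.3 and 921 CPM with ABT263, without overlap (log2 fold change 0.57, SE 0.24, adjusted p = 0.593 by edgeR). Of the 18 further sterol-side genes 1 had every ABT263 library above every vehicle library, which is near the 5.68% of all genes.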
